A study of Homo sapiens with 3 samples.

Results

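The genes described here encode the structural proteins of the extracellular matrix and of the basement membrane, the thin sheet of matrix on which epithelia and pluripotent colonies sit. Members were chosen by gene symbol alone, as collagens, laminins, nidogens, HSPG2, AGRN, FN1, fibrillins, fibulins, VCAN, thrombospondins, TNC, SPARC, SPP1 and symbols that start with LOX. Of the 18417 genes that could be named from a probe set with 1 gene symbol, 79 met this rule, and 78 of them are read by 1 probe set. The rule used no measured value, but it was chosen with earlier results of these data known.

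The RNA came from H9, an established human embryonic stem cell line kept pluripotent, with no genetic change or treatment named in the labels. The 3 sources were RNA bound to polysomes, RNA free of polysomes (unbound) and total RNA, and each was hybridised to 1 Affymetrix array. There is therefore no replicate check on any value, no test was possible, and each difference is a description of these arrays. The polysome pools were extracted with a PureLink kit and the whole cells with an RNeasy Plus kit, so in both comparisons with total RNA the kit and the source cannot be told apart. How polysomes were separated, on which matrix or feeder layer the cells grew, and whether the 3 RNAs came from the same culture are not given in the sources used here.

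As background, a polysome is an mRNA that carries several ribosomes at once. Matrix proteins are made on ribosomes at the endoplasmic reticulum and secreted. Collagen chains wind into triple helices, which are laid down as fibrils (types I, II, III, V and XI) or as the open network of type IV collagen in basement membranes. Laminins are trimers of an alpha, a beta and a gamma chain that join type IV collagen through nidogens and the heparan sulfate proteoglycans perlecan and agrin. Human pluripotent stem cells are known to secrete laminin of the alpha 5 chain and to attach to laminin through integrins.

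Type IV collagen genes lie head to head in pairs on their chromosomes. COL4A1 with COL4A2 and COL4A5 with COL4A6 are shown first because these pairs went separate ways against total RNA. Each of these genes lay on the bound side against unbound RNA. COL4A3 and COL4A4, which had low levels on each array, are not shown. Whether the sequences bear on the values was not tested. COL4A1 and COL4A2 start 126 bases apart on opposite strands, and COL4A5 lies 379 bases from the nearer of the 2 starts listed for COL4A6. The stretches below are from RefSeq on GRCh38.p14, plus strand. Capitals mark the letters CCAAT (the CCAAT box) and GGGCGG (the GC box) on either strand, with no overlap between them. The first is the whole interval between COL4A1 and COL4A2, at chr13:110307158-110307283, and the second is the 250 bases before COL4A5, at chrX:108439588-108439837.
COL4A1/COL4A2: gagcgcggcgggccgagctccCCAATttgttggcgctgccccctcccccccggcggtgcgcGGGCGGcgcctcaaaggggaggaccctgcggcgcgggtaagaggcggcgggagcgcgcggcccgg
COL4A5: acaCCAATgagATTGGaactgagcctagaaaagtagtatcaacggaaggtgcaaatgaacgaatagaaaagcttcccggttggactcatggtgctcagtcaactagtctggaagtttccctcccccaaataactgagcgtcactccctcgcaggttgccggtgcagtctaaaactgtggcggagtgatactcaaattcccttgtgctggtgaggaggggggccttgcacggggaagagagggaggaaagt

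The interval between COL4A1 and COL4A2 held 1 CCAAT match and 1 GGGCGG match, and the stretch before COL4A5 held 2 CCAAT matches and 0 GGGCGG matches. Over all 27305 genes in the promoter table, 33% had CCAAT and 42.3% had GGGCGG in the 250 bases before the start. Within 126 bases of the start, the shares were 21.9% and 34.6%. Of the 79 members, 63 matched the table, and 17 of these had CCAAT and 40 had GGGCGG in the 250 bases. Without an entry were AGRN, COL1A1, COL1A2, COL2A1, COL3A1, COL5A2, COL6A1, COL6A5, COL8A1, COL9A3, COL14A1, COL20A1, COL22A1, LAMA1, LAMC3 and LOXL2. The member counts do not cover these genes. TATAAA, the TATA box, was found before 5 of the 63, against 11.1% of all genes. A match is a description of the letters and not a binding site.

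Expression levels are log2 values, so that a step of 1 is a 2-fold difference. Genes of smell, taste, hair and skin defence (483 receptors, keratin-associated proteins and defensins) served to set a background line on each array, at their 95th percentile. The line was 4.40 on the bound, 3.56 on the unbound and 3.76 on the total RNA array. In total RNA, 57 of the 79 members lay above this line, against 63.6% of all genes. On the bound array 57 did so, against 64.9% of all genes, and on the unbound array 50, against 63.2%. With the line at the 99th percentile, 43 members were above it in total RNA, against 46.9% of all genes. Levels of different genes come from different probes and are not ranked against each other.

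A gene entered the comparisons if its mean over the 3 arrays exceeded 3.84, which 12063 of all genes (65.5%) and 58 of the 79 members did. The 21 members that did not pass are COL4A3, COL4A4, COL5A3, COL6A5, COL6A6, COL8A1, COL10A1, COL15A1, COL19A1, COL20A1, COL21A1, COL24A1, COL25A1, COL28A1, LAMA2, LAMA4, LAMB3, LAMB4, LAMC3, LOXL4 and LOXHD1. The last is a hair cell protein that shares only the start of its symbol with the lysyl oxidases. Their levels ran from 3.23 to 4.57 on the bound array, from 2.61 to 3.32 on the unbound array and from 2.92 to 3.92 in total RNA. In this group LAMA4 was above background in total RNA and COL6A6 on the bound array, and the other 19 were above it nowhere. COL4A3 and COL4A4 are the type IV chains of kidney and other specialised membranes. Nearest to the line were COL6A6 (mean 3.76) below it and COL22A1 (3.89) above it.

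**Figure D1:**
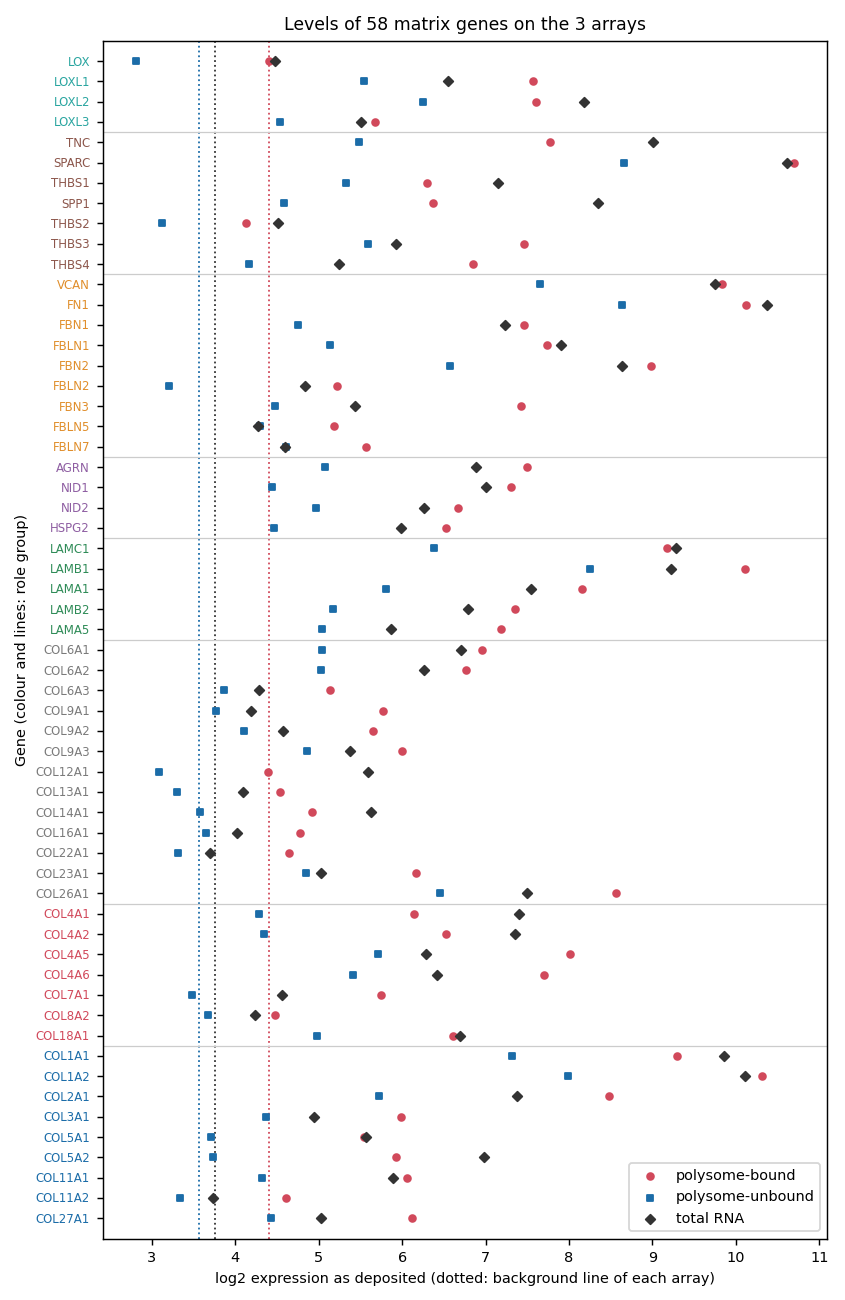
Log2 expression as deposited (horizontal axis) of the 58 members past the level filter, 1 gene a line, on the polysome-bound, polysome-unbound and total RNA array, with 1 array each. Dotted lines mark the background of each array. In most genes the unbound value lies lowest, and in COL4A1, COL5A2, COL12A1, TNC and SPP1 the total RNA value lies above both polysome fractions by more than 1. The arrays do not share a scale, and the median over all genes past the filter was also lowest on the unbound array.

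The arrays do not share a scale. Medians over the 12063 genes were 7.23 bound, 5.96 unbound and 6.20 in total RNA, so that the offsets were 1.26 for bound minus unbound, 1.03 for bound minus total and -0.23 for unbound minus total. Each relative difference given below has the offset of its comparison subtracted. As deposited, 54 of the 58 members had a bound value 2-fold or more above the unbound value, against 61.4% of all genes, and 0 were lower, against 1.56%.

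Bound and unbound RNA were compared to ask which transcripts the polysomes carried, and matrix genes lay on the bound side. Their median relative difference was 0.60, against -0.07 over all genes tested, and 49 of the 58 were above 0, against 46.2% of all genes. At least 2-fold higher in bound RNA were 15 of the 58 members (25.9%), against 6.35% of all genes. No member was 2-fold lower, where 9.91% of all genes were. The values ran from -0.47 (COL8A2) to 1.68 (FBN3). COL8A2 was close to the background lines, at 4.48 bound and 3.68 unbound. Of the 15, 6 lay between 1 and 1.1, and 4 further members lay between 0.9 and 1, so the count moves with small shifts of scale. Both arrays were above background for 14 of the 15, the exception being COL7A1. The count was 31 at a threshold of 1.5-fold, against 17.7% of all genes, and 2 at 3-fold, against 0.846%. The 49 include COL11A2, COL12A1, COL22A1 and LOX, each below background on the unbound array and not placed on either side of 0. Of the 50 members above background on both polysome arrays, 43 were above 0. The matching share of all genes was not counted. With genes above background on each of the 3 arrays, the median was 0.66 over 50 members, against -0.07 over all such genes. A gene dim on the unbound array has only a lower bound for its relative difference.

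**Figure D2:**
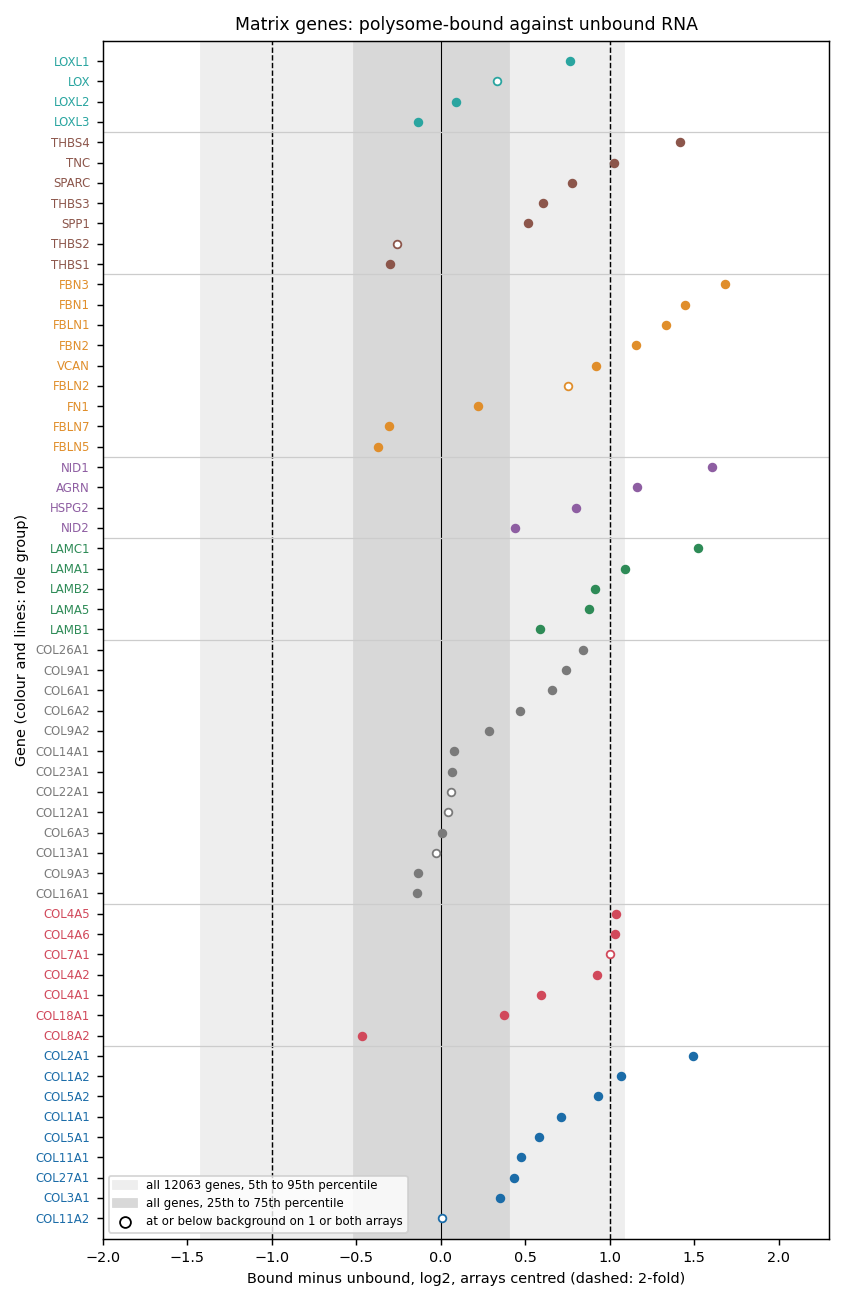
Relative difference of bound minus unbound RNA (log2, arrays centred, horizontal axis) for the 58 members, by role group. Open circles are genes at or below background on 1 or both arrays, and grey bands give the middle 50% and 90% of all 12063 genes. FBN3 (1.68), NID1 (1.60) and LAMC1 (1.52) lie furthest to the bound side, and no member lies past the dashed line on the unbound side.

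Fibrillar collagens form the cables of connective tissue, and 9 of 11 passed the filter. The median relative difference of bound minus unbound was 0.58, and all but COL11A2 lay above 0. COL2A1, the chain of cartilage collagen, had levels of 8.47 bound, 5.72 unbound and 7.37 in total RNA. Its relative difference of 1.49 was above that of 98.7% of all genes tested. The type I collagen chain COL1A2 had levels of 10.32 bound, 7.99 unbound and 10.11 in total RNA, which gave 1.07. Its partner COL1A1 had 9.29, 7.32 and 9.86, which gave 0.71. These chains assemble in 1 molecule, and both were higher in the bound than in the unbound fraction, COL1A2 past the 2-fold line and COL1A1 short of it. Type V collagen, which sets fibril width, gave 0.93 for COL5A2 and 0.58 for COL5A1. The remaining values were 0.47 for COL11A1, 0.43 for COL27A1 and 0.35 for COL3A1. COL11A2 was below background on the unbound and total arrays, and its relative difference was at least -0.22, which does not place it on either side of 0.

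Among network and basement membrane collagens 7 of 12 passed, with a median of 0.92. COL4A5 and COL4A6, the head-to-head pair on the X chromosome, were close to each other. COL4A5 had levels of 8.01 bound, 5.71 unbound and 6.29 in total RNA, for a relative difference of 1.04. COL4A6 had 7.70, 5.41 and 6.41, for 1.03. The more widespread chains COL4A1 and COL4A2 gave 0.59 and 0.92. COL4A1 had levels of 6.15 bound, 4.29 unbound and 7.40 in total RNA, and COL4A2 had 6.53, 4.34 and 7.35. In both of these genes, unlike COL4A5 and COL4A6, the total RNA array read highest. COL7A1, the anchoring fibril that ties skin epithelium to the dermis, was at 5.75 bound and below background in unbound RNA. As deposited its bound value was at least 4.55-fold above the unbound one, which is a relative difference of at least 0.92 and so not surely past the 2-fold line. COL18A1, the source of endostatin, gave 0.37, and COL8A2, close to background on both polysome arrays, -0.47.

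Other collagens, which include beaded filaments, fibril-associated and transmembrane types, were nearer to the other genes, with 13 of 20 past the filter, a median of 0.06 and 0 at 2-fold in either direction. Most of these genes were dim. Above the 99th percentile line on both polysome arrays were only COL26A1, COL6A1, COL6A2, COL23A1 and COL9A3, with values from 0.84 to -0.13. The part of low signal in the median of 0.06 was not tested. COL26A1 (0.84), COL9A1 (0.74) and COL6A1 (0.66) were highest, and COL16A1 (-0.14) and COL9A3 (-0.13) lowest. The type VI chains assemble as trimers, and COL6A2 gave 0.47 and COL6A3 0.01. COL9A2 gave 0.29, COL14A1 0.08 and COL23A1 0.06. COL12A1 was at or below background on both polysome arrays and is given no difference between them. COL13A1 and COL22A1 were below it on the unbound array, and their relative differences of at least -0.29 and -0.18 leave their side of 0 undetermined.

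The laminins that passed were LAMA1, LAMA5, LAMB1, LAMB2 and LAMC1, 5 of 10, which include a member of each chain type. All 5 lay on the bound side, with a median of 0.91. LAMC1, the gamma chain of most laminins, had levels of 9.17 bound, 6.39 unbound and 9.28 in total RNA, and its relative difference of 1.52 exceeded that of 98.9% of all genes. LAMA1 had 8.15, 5.80 and 7.55, which gave 1.09. LAMA5, the alpha chain known from stem cell laminin, had 7.18, 5.04 and 5.87, which gave 0.88. The beta chains gave 0.91 for LAMB2 and 0.59 for LAMB1, whose levels were 10.11, 8.26 and 9.22. LAMC1 was thus the chain furthest to the bound side and LAMB1 the least far.

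All 4 of the nidogens and heparan sulfate proteoglycans passed and lay on the bound side, with a median of 0.98. NID1, which links laminin to type IV collagen, had levels of 7.31 bound, 4.44 unbound and 7.01 in total RNA. Its relative difference was 1.60, above that of 99.2% of all genes. NID2, its paralog, had 6.67, 4.97 and 6.26, for 0.44. Agrin (AGRN), known for clustering receptors at the nerve-muscle synapse, had 7.50, 5.07 and 6.89, for 1.16. Perlecan (HSPG2) had 6.53, 4.46 and 5.99, for 0.80.

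The 3 fibrillins, which build elastic microfibrils and hold latent TGF-beta, were all past the 2-fold line. FBN3, an embryonic fibrillin, had levels of 7.42 bound, 4.47 unbound and 5.43 in total RNA. Its relative difference of 1.68 was the largest of the members. FBN1, the Marfan syndrome gene, had 7.46, 4.75 and 7.24, for 1.45, and FBN2 had 8.99, 6.57 and 8.64, for 1.15. Fibulins bind these fibres and were split. FBLN1 had 7.73 bound, 5.14 unbound and 7.91 in total RNA, for 1.33, while FBLN7 gave -0.31 and FBLN5 -0.37. FBLN2, below background in unbound RNA, had a bound value at least 3.14-fold higher as deposited, a relative difference of at least 0.39. Fibronectin (FN1), an adhesive glycoprotein, had 10.12, 8.64 and 10.38, for 0.22, and the proteoglycan versican (VCAN) had 9.83, 7.65 and 9.74, for 0.92.

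Thrombospondins are secreted glycoproteins that regulate adhesion, and all 4 passed the level filter. THBS3 and THBS4, which form pentamers, lay on the bound side, with levels of 7.46 bound, 5.59 unbound and 5.93 total for THBS3 (relative difference 0.61) and 6.85, 4.17 and 5.24 for THBS4 (1.41). THBS1 and THBS2 form trimers. THBS1 had 6.29, 5.33 and 7.15, for -0.30, and THBS2 was below background on both polysome arrays. Tenascin C (TNC) had 7.78, 5.49 and 9.01, for 1.02. SPARC, a collagen-binding protein, had 10.70, 8.66 and 10.61, for 0.78, and osteopontin (SPP1) had 6.37, 4.59 and 8.35, for 0.52. Lysyl oxidases cross-link collagen and elastin, and 4 of them passed. None was 2-fold apart among the 3 above background on both arrays, where LOXL1 gave 0.77, LOXL2 0.09 and LOXL3 -0.14. LOX was below background in unbound RNA, and its relative difference of at least -0.42 does not place it on either side of 0.

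Gene size was set beside these values, because the analysis planned on protein length could not be run. Over all genes tested, the Pearson correlation of the relative difference of bound minus unbound with log10 genomic span was 0.32 (n = 12054 genes, which share the same arrays), and over the 58 members it was 0.17. Among genes of 30 to 100 kb the median relative difference was 0.05 for all 3729 genes and 0.75 for the 22 members. From 100 to 300 kb it was 0.13 for all 1833 genes and 0.70 for the 20 members, and from 10 to 30 kb it was -0.05 for all 3304 genes and 0.47 for the 12 members. Above 300 kb the medians were close, at -0.02 for all 487 genes and 0.06 for the 3 members, and under 10 kb there was 1 member, SPP1. Genomic span includes introns and is not the length of the reading frame. Across the 58 members the relative difference also correlated with the mean level over the arrays (r = 0.48), against 0.01 over all genes.

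Against total RNA the members lay on the low side in both polysome fractions. The comparison of bound with total RNA asks how the polysome-bound pool differs from all RNA of the cell. Its median relative difference over the 58 members was -0.61, against -0.14 over all genes. At least 2-fold lower in bound RNA were 17 members (29.3%), against 6.41% of all genes, and 0 were higher, against 2.66%. Above 0 were 14 members, against 37.8% of all genes. Both arrays were above background for 15 of the 17, the exceptions being COL12A1 and THBS2. This depends on centring. As deposited the median was 0.42, with 15 members 2-fold higher and 5 lower, against 40.1% and 0.572% of all genes. Unbound minus total RNA gave a median of -1.32 against -0.07 over all genes. There, 32 members (55.2%) were at least 2-fold lower, against 9.96% of all genes, and 0 were higher, against 8.09%. Above 0 were 3 members, against 45.5% of all genes. Both arrays were above background for 28 of the 32, all but COL12A1, FBLN2, LOX and THBS2. By their bounds, LOX and THBS2 are not surely past the 2-fold line. As deposited 38 were lower, against 16.0% of all genes, and 0 were higher, against 5.42%. Both comparisons share the total RNA array, and the 3 relative differences of a gene are tied by arithmetic, so they are set side by side below and not counted as separate evidence.

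**Figure D3:**
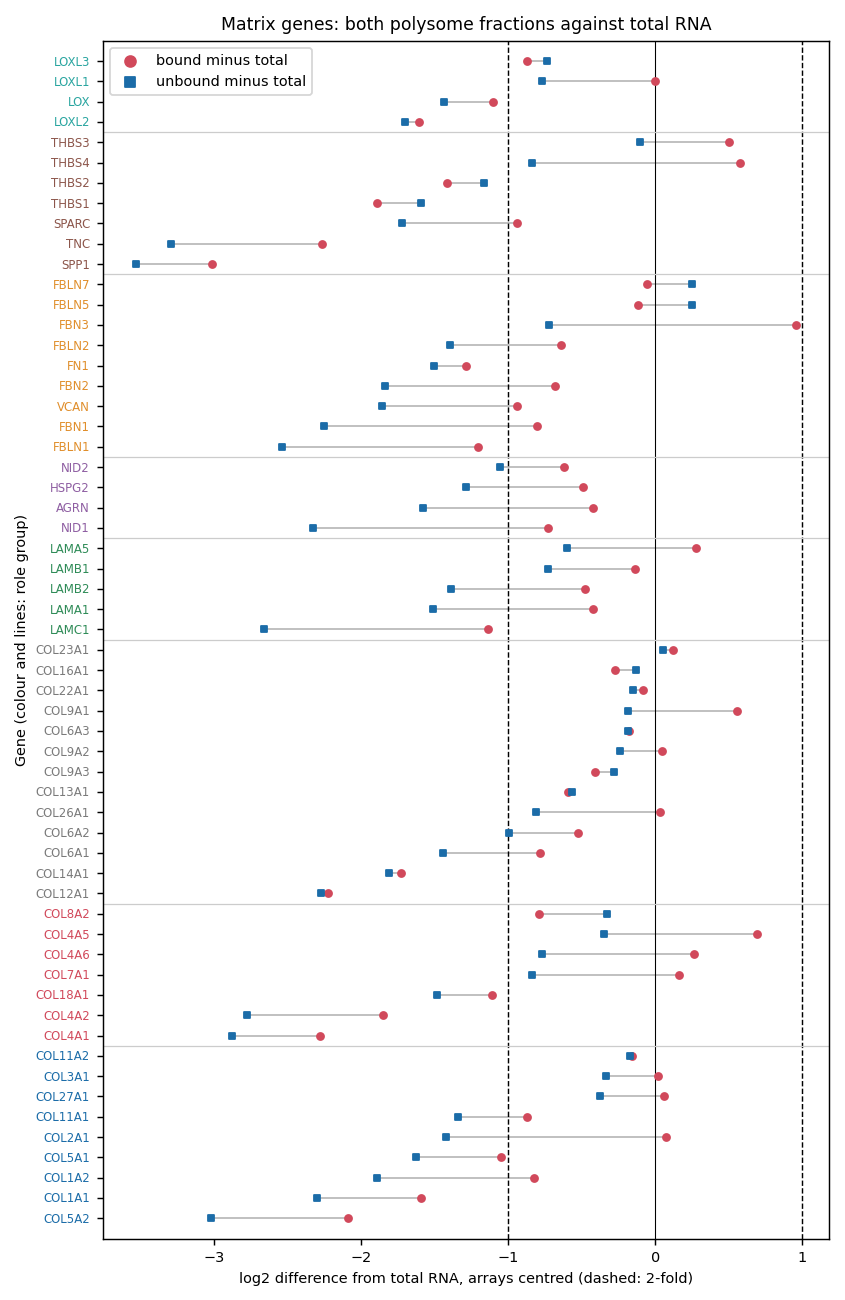
Relative difference from total RNA (log2, arrays centred, horizontal axis) of bound RNA (circles) and unbound RNA (squares) for the 58 members, by role group. Both comparisons share the total RNA array. Genes at or below background on an array are drawn at their measured values and are not marked. SPP1, TNC, COL4A1, COL4A2 and COL5A2 lie furthest to the left, and FBN3 (0.96) and COL4A5 (0.69) have the highest values of bound minus total.

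SPP1, TNC and the type IV pair COL4A1 and COL4A2 were among the members furthest below total RNA. SPP1, a secreted phosphoprotein of bone and of many epithelia, gave -3.01 in bound and -3.53 in unbound RNA. TNC, a matrix protein of embryonic and healing tissue, gave -2.27 and -3.29. COL4A1 gave -2.28 and -2.88, and COL4A2 gave -1.85 and -2.78. The other type IV pair stood apart from this. COL4A5 gave 0.69 in bound and -0.35 in unbound RNA, and COL4A6 gave 0.26 and -0.77. The members of each pair differed by 0.43 in bound minus total RNA, less than the distance between the pairs.

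Of the fibrillar collagens, 3 of 9 were 2-fold lower in bound than in total RNA and 6 of 9 in unbound RNA. COL5A2 gave -2.09 in bound and -3.02 in unbound RNA, COL1A1 gave -1.59 and -2.30, and COL5A1 gave -1.05 and -1.63. COL1A2, the partner of COL1A1, gave -0.82 and -1.89, and its bound value shrank to -0.13 under quantile normalization. COL2A1 differed from these in the bound fraction, with 0.07 and -1.42, and COL11A1 gave -0.87 and -1.34. COL3A1 gave 0.02 and -0.33, and COL27A1 0.06 and -0.37. COL18A1 gave -1.11 and -1.48. Of the other collagens, COL14A1 gave -1.73 and -1.81, and COL6A1 -0.78 and -1.44. COL12A1, at 5.60 in total RNA, was below background in both fractions. By the deposited values it was at least 2.29-fold lower in bound and at least 4.09-fold lower in unbound RNA. Its relative differences were thus at most -2.22 and at most -1.80.

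Basement membrane glycoproteins were lower than total RNA mainly in the unbound fraction. LAMC1 gave -1.14 in bound and -2.66 in unbound RNA, and NID1 gave -0.73 and -2.33. LAMA1 gave -0.42 and -1.51, AGRN -0.42 and -1.58, HSPG2 -0.49 and -1.29, LAMB2 -0.48 and -1.39, and NID2 -0.62 and -1.06. LAMB1 (-0.14 and -0.73) and LAMA5 (0.28 and -0.60) were within 2-fold of total RNA in both. Among these 9 genes LAMC1 alone was 2-fold lower in the bound fraction, and it was not under quantile normalization (-0.74) or with a lowess trend removed (-0.75). LAMB1 turned to 0.48 and 0.34 in bound minus total RNA under these settings.

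Of the microfibril and adhesion genes, FBLN1 gave -1.20 in bound and -2.54 in unbound RNA, and FN1 -1.28 and -1.51. The bound value of FN1 was -0.67 under quantile normalization and -0.65 with a lowess trend removed, short of 2-fold in both. FBN1 gave -0.81 and -2.25, FBN2 -0.68 and -1.84, and VCAN -0.94 and -1.86. FBN3 stood apart from the other fibrillins with 0.96 and -0.72. FBLN5 and FBLN7 were at 0.25 in unbound RNA, and they and COL23A1 (0.05) were the members above 0 there. SPARC gave -0.94 and -1.72, with -0.16 in bound RNA under quantile normalization. THBS1 gave -1.89 and -1.59, and LOXL2, a lysyl oxidase of basement membranes, -1.61 and -1.70. By the deposited values THBS2 was at least 1.08-fold lower in bound and at least 1.93-fold lower in unbound RNA. FBLN2 was at least 2.41-fold and LOX at least 1.89-fold lower in unbound RNA. The relative difference of THBS2 in bound RNA was thus at most -1.14. In unbound RNA the relative differences were at most -0.715 for THBS2, -1.03 for FBLN2 and -0.68 for LOX. THBS2 and LOX are therefore not surely past the 2-fold line in unbound RNA. THBS3 gave 0.50 and -0.11, and THBS4 0.58 and -0.84.

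Genes that make, export, bind and cut matrix give the setting, and their counts for bound minus unbound stand against 6.35% of all genes higher and 9.91% lower. Of the genes that modify and fold collagen, 18 of 19 measured passed, with a median relative difference of bound minus unbound of 0.34. In that list 2 were 2-fold higher, the peroxidase PXDN (1.58), which cross-links type IV collagen, and the collagen galactosyltransferase COLGALT1 (1.49), and 1 was lower, CRTAP (-1.63), followed by P3H1 (-0.75). CRTAP and P3H1 work in 1 complex that hydroxylates prolines of collagen. Of 20 matrix receptors past the filter 4 were 2-fold higher and 0 lower, with a median of 0.56, from the integrin chains ITGA7 (1.64) and ITGAV (1.30) to SDC1 (-0.04). The hyaluronan receptor CD44 lay lower still, at a measured -0.94, with 4.18 bound (below background) and 3.86 unbound (above background). A bound level at the background line of 4.40 would also leave it on the unbound side. Of 20 matrix proteases and inhibitors 3 were higher and 0 lower, with a median of 0.32, from PLAU (1.27) and FURIN (1.16) to TIMP1 (-0.83) and PCOLCE (-0.98).

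Secretion genes had a median of -0.10 over 29, close to that of all genes (-0.07), with 4 higher and 5 lower. MIA3, the receptor that loads collagen into transport vesicles, gave 1.19 and the signal peptidase subunit SPCS3 1.11. SSR2, a subunit of the translocon-associated complex, gave -1.26 and SEC11A, a signal peptidase catalytic subunit, -1.59. Against total RNA the medians in bound RNA were -0.64 for collagen modification, -0.33 for secretion, -0.33 for receptors and -0.37 for proteases. In unbound RNA they were -0.74, -0.43, -0.90 and -0.75. The members' medians of -0.61 and -1.32 were lower than these except for collagen modification in bound RNA, and the difference between lists was not tested.

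**Figure D4:**
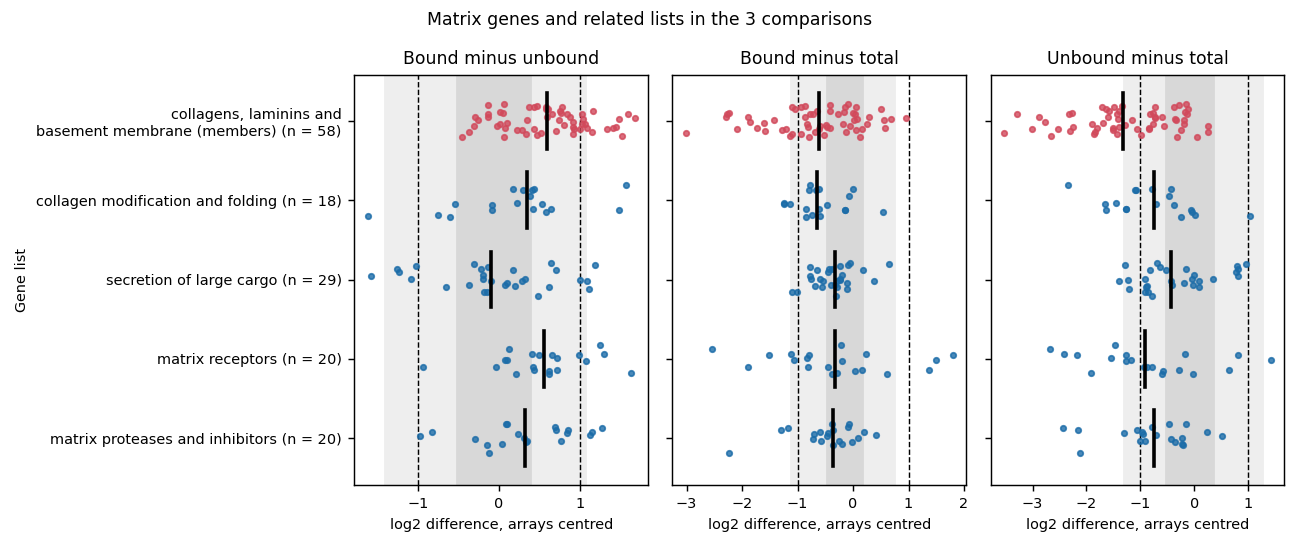
Relative differences (log2, arrays centred, horizontal axes) in the 3 comparisons for the 58 members and 4 lists of related genes, 1 point a gene, with the median as a black bar. Grey bands give the middle 50% and 90% of all 12063 genes. The members' medians are 0.60, -0.61 and -1.32.

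Markers of other cells were measured on the same arrays. In total RNA all 11 measured pluripotency markers were above background. Of 14 fibroblast markers 12 were so in total RNA, 11 in bound and 10 in unbound RNA, with median levels of 4.54, 5.04 and 3.93 and a median relative difference of -0.08 for bound minus unbound. FAP and PRRX1 did not pass the filter, and DCN was below background in total RNA. Relative to total RNA their medians were -0.45 in bound and -0.40 in unbound RNA, and they were split. Of the 12 past the filter, 4 were above 0 in both fractions, LUM (1.53 and 0.46), PDGFRA (0.20 and 0.11), DCN (0.07 and 0.35) and ACTA2 (0.09 and 0.33). Among the others were THY1 (-1.36 and -1.87) and POSTN, which was above background in total RNA alone, at 5.81. THY1, at 8.60 in total RNA, is not particular to fibroblasts. Its values lay within the range of the pluripotency markers, which was -2.16 to -0.51 in bound and -2.50 to 0.11 in unbound RNA. Of 9 endothelial markers, TEK alone was above background on any array. TEK gave 1.07 for bound minus unbound, -1.63 for bound minus total and -2.70 for unbound minus total.

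Endoderm markers were also split against total RNA, while most trophoblast or amnion markers lay above it. Of 9 endoderm markers, 8 were above background in bound, 7 in unbound and 7 in total RNA, with median levels of 5.36, 4.52 and 3.97. AFP had levels of 7.08 bound, 5.58 unbound and 3.68 in total RNA, and TTR had 8.22, 4.82 and 3.96, so that AFP was below background in total RNA. Of the 7 endoderm markers past the filter 4 were above 0 in both fractions, with medians relative to total RNA of 0.41 in bound and 0.39 in unbound RNA. The other 3 were GATA6 (-1.02 and -0.38), CXCR4 (-0.96 and -0.26) and FOXA2 (-0.54 and -0.10). Trophoblast or amnion markers passed the background line for 8 of 9 genes in bound, 8 in unbound and 6 in total RNA, with median levels of 6.55, 4.95 and 4.73 and medians relative to total RNA of 0.79 in bound and 0.82 in unbound RNA. Pluripotency markers gave -1.12 and -1.22. The part of these markers in the members' values was not tested. In such bulk RNA, fewer cells of a type and less RNA per cell cannot be told apart.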

How the data were processed

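Values as deposited by the authors are on a log2 scale, and RMA and Partek 6.5 are named in the submitters' processing notes. The 3 columns differ in distribution. The decimals of the bound column point to an added constant of 0.1127 to 0.1140, which centring removes. The scaling between the deposited arrays is unknown, and the single array per source and the signal over background limit precision.

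Of 33297 probe sets, 19460 list 1 gene symbol in GEO's platform annotation, 1754 several and 12083 are not listed. Genes were named from the first kind only. Gene IDs were looked up in RefSeq (GRCh38.p14), which changed 0 symbols. Of several probe sets, the one with the highest mean was kept. Arrays were centred on their medians over the 12063 genes past the filter. With 1 array a group no test was run. In the text, members below background on 1 array of a comparison are given as bounds. Medians, counts, figures and marker values use the measured values of such genes.

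Every member past the filter may be named, and the 2 highest and 2 lowest genes of each related list for bound minus unbound. Cell type markers named with values, and lists, members and rules, were chosen with earlier results of these data known. A planned comparison with protein length was replaced by genomic span after the data were seen. Scripts were tested on simulated data. Software was Python 3.11.15 with pandas 2.3.3, numpy 2.4.6, matplotlib 3.10.9 and statsmodels 0.14.6.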

Additional observations from a re-analysis of the deposited data

How the results depend on the processing

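The alternatives were values as deposited, with or without the constant, quantile normalization, a lowess trend (span 0.3), centring on protein-coding genes, other level filters, other uses of probe sets, narrower membership and thresholds of 1.5-fold and 3-fold. As deposited, the members' median was 1.86 for bound minus unbound, with 54 members 2-fold higher, and turned to 0.42 for bound minus total (all genes 0.89), with 15 higher and 5 lower. Less the constant, the first were 1.75 (all genes 1.08) and 53 (54.8% of all genes), and the second 0.31 (all genes 0.77), 9 (31.5%) and 5 (0.705%), so the members stayed below the other genes against total RNA. At 1.5-fold, 31 members were higher in bound than unbound RNA (17.7% of all genes), and 2 were higher (8.2%) and 30 lower (18.5%) in bound than total RNA. At 3-fold these were 2 (0.846%), 0 (0.572%) and 10 (1.53%), and 19 members were lower in unbound than total RNA (2.6%). With the filter at the 99th percentile, 41 members passed. Of these 1, FBN3 (1.06), was 2-fold higher in bound than total RNA, against 3.59% of all genes. Without thrombospondins, TNC, SPARC, SPP1 and the LOX group, 47 members remained. Of these, 11 were 2-fold lower in bound than total RNA, against 6.41% of all genes. Without a level filter the unbound minus total median over all 79 was -0.82. The other medians kept their direction, and the other counts stayed within 1.5 times. The bound minus unbound count was between 11 (protein-coding centring) and 22 (quantile normalization) among those settings. No member past 2-fold changed sign under any alternative run. As deposited this was all but fixed in advance, because every gene of a comparison moves by the same offset. There, 5 of the 17 members stayed 2-fold lower in bound than total RNA. Other filters and memberships move the value of a gene little, so they hardly check its sign. FN1, LAMC1 and LOX lost the 2-fold difference of bound minus total RNA under quantile normalization and lowess. Centring on protein-coding genes took COL4A5, COL4A6, TNC and COL7A1 below the 2-fold line of bound minus unbound RNA. No paired analysis was possible because each group has 1 array.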
